A study of Mus musculus with 6 samples.

Results

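Splicing factors are the proteins that build the spliceosome or steer it, and their transcripts are described here in BV2, an immortal mouse microglial line, left untreated or exposed for 1 h to adenine, one of the purine bases of DNA and RNA. The probes were taken by symbol: the 86 probes, of 26423 on the array, whose platform symbol begins with SNRP, SRSF, SFRS, HNRNP, HNRP, PRPF, SF3A or SF3B, or is LSM followed by a digit. They stand for 69 genes of 17742 named ones, and fall into 27 probes of Sm and LSM genes (20 genes), 17 of SR genes (13 genes), 22 of hnRNP genes (16 genes) and 20 of SF3 and PRPF genes (20 genes). The symbol rule uses no measured value, but it was set with earlier results of these data known.

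The groups were untreated control cells, cells given a lower adenine dose and cells given a higher dose, with 2 single-colour arrays each and total RNA from the same line in all of them. Titles and treatment protocol give the doses as 20 and 80 µM, whereas the sample characteristics give 80 and 250 µM, so only their order is used. The design text speaks of separate cultures, but the titles do not tie arrays to cultures. If the 2 arrays of a group shared one, the errors and p-values would measure only the spread between arrays. Of 12 microglia and macrophage markers, 10 were measured and 9 of them lay above the median intensity of all probes. Their summed normalized intensity was 105666 to 107021 units in control, 106912 to 114824 at the lower dose and 165277 to 184691 at the higher dose. The brightest markers weigh most in this sum. At the higher dose 3 of the 10 rose in limma, beside 9.17% of all probes above the median intensity. Csf1r (−0.48), Ptprc by its brighter probe (−0.14) and Cx3cr1 (−0.13) had negative log2 changes that did not pass. The other measured markers had positive ones. Of the markers of other cell types, 0 of 5 measured for fibroblasts, 1 of 4 for astrocytes, 1 of 3 for neurons, 2 of 4 for lymphocytes, 3 of 4 for oligodendrocytes and 3 of 5 for endothelium lay above that median, and 0 of 25 over 6 cell types rose or fell in limma at the higher dose. Of all probes of the array 10.6% were called in that comparison, so 0 of 25 is not read as a result about these markers. The part of cell identity in the results was not tested. The 2 higher-dose arrays stood apart: over probes above the median intensity, Pearson's r of log2 values was 0.989 between them, 0.929 to 0.941 between them and the control or lower-dose arrays, and 0.978 to 0.986 within the remaining 4.

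In the spliceosome, each of the small nuclear RNAs is wrapped in a ring of proteins. The Sm proteins form the ring on most of them and the related LSM proteins form it on U6, while a cytoplasmic LSM ring takes part in mRNA decay. The SF3a and SF3b complexes belong to the U2 particle and hold the branch point, and many PRPF proteins, but not all, join at the tri-snRNP or later steps. SR proteins, which carry arginine and serine repeats, mostly promote the use of nearby splice sites, and the hnRNP proteins, which coat nascent transcripts, often oppose them. Many SR and hnRNP genes limit their own mRNA through alternative exons that send it to decay.

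At the higher dose the families moved in different directions. Of the 27 Sm and LSM probes, 12 rose and 2 fell against control, whereas 6 of 17 SR probes fell and 1 rose, 7 of 22 hnRNP probes fell and 0 rose, and 2 of 20 SF3 and PRPF probes rose and 2 fell (limma, adjusted p under the threshold of 0.05 over all 26423 probes). Family medians of the log2 change were 0.84 for Sm and LSM, −0.72 for SR, −0.66 for hnRNP and −0.46 for SF3 and PRPF, beside −0.01 over all probes of the array. Together 15 of the 86 probes rose and 17 fell, or 37.2%, where 10.6% of all probes of the array were called (5.55% higher and 5.06% lower). The splicing factor probes were bright, with 76 of 86 above the median intensity. Among such probes 30 of the 76 were called, 13 higher and 17 lower, beside 17.0% of all probes that bright (9.17% higher and 7.80% lower). Without normalization between arrays the split was 13 higher and 9 lower, at a background of 8.09%. The calls rest on few arrays: most or all of the 32 were lost whenever any 1 array was left out, which leaves 1 array in a group. The share of all probes called in those fits is not given, so the loss is not read as particular to splicing factors. In those fits the family medians at the higher dose stayed between 0.76 and 0.84 for Sm and LSM, −0.84 and −0.58 for SR, −0.85 and −0.56 for hnRNP and −0.46 and −0.42 for SF3 and PRPF. By gene, with the brightest probe standing for each, 13 of 69 genes rose and 15 fell at a background of 15.3% of named genes. Intensities are relative to the rest of each array. RNA per cell was not measured, so a change in the total RNA of a cell would not be seen.

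**Figure D1:**
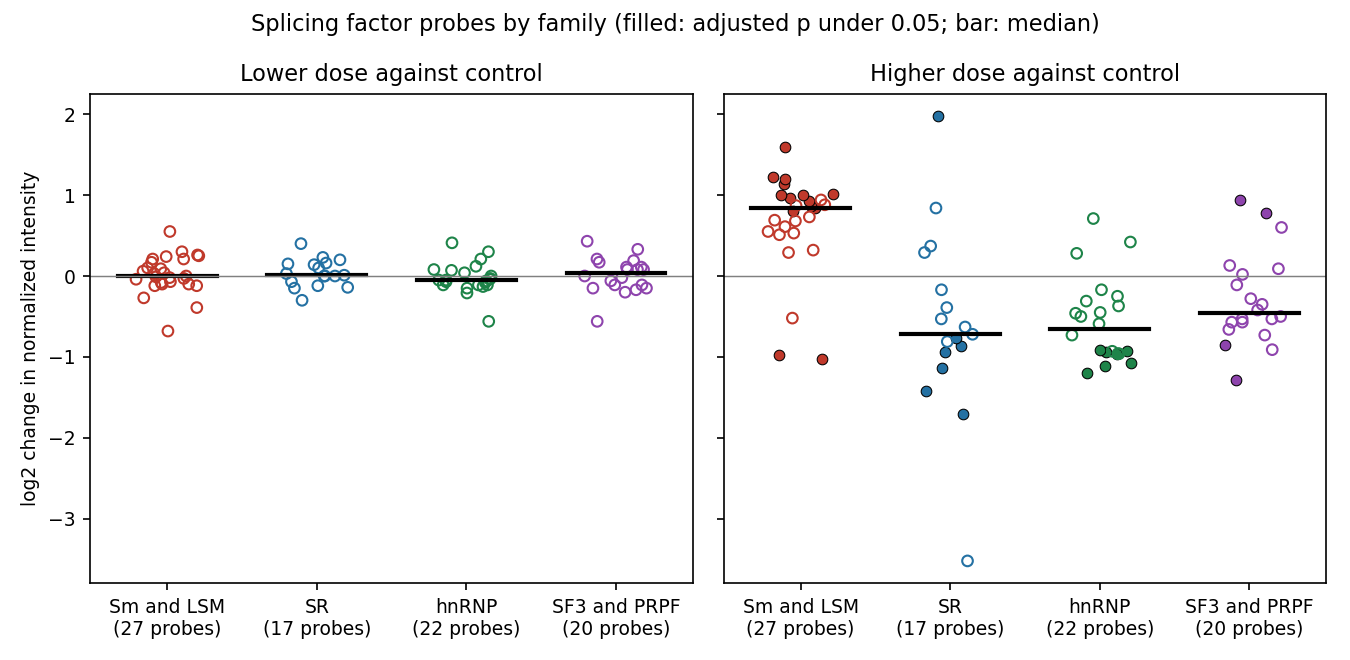
Log2 change in normalized intensity of each of the 86 splicing factor probes, at the lower dose against control (left) and the higher dose against control (right), by family; filled points have an adjusted p under 0.05 and bars are family medians. At the lower dose no point is filled and the medians lie between −0.05 and 0.04, and at the higher dose the Sm and LSM median is 0.84 and the others lie between −0.72 and −0.46.

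The same split was seen on each higher-dose array. Relative to the control mean of each probe, the median Sm and LSM probe stood at 0.83 and 0.76 on the higher-dose arrays, against 0.04 and −0.04 on the control arrays. The SR median was −0.58 and −0.80 at the higher dose, against 0.07 and −0.07 in control, the hnRNP median was −0.85 and −0.57, against −0.02 and 0.02, and the SF3 and PRPF median was −0.42 and −0.43, against 0.09 and −0.09. On the lower-dose arrays the 4 family medians lay between −0.06 and 0.06.

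**Figure D2:**
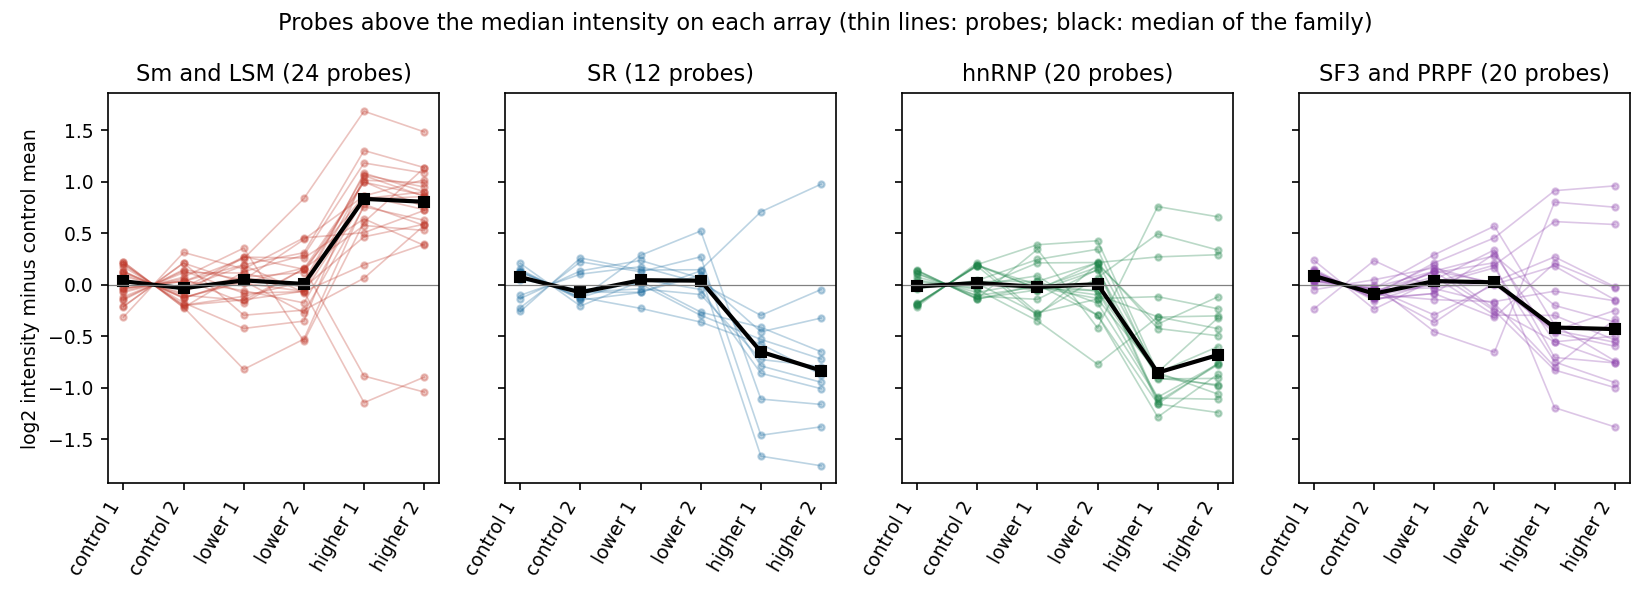
Log2 normalized intensity minus each probe's control mean on the 6 arrays, for the 76 splicing factor probes above the median intensity; thin lines are probes and black squares the family median. Medians on the higher-dose arrays are 0.83 and 0.81 for Sm and LSM, −0.65 and −0.83 for SR, −0.85 and −0.68 for hnRNP and −0.42 and −0.43 for SF3 and PRPF, and the control and lower-dose arrays lie near 0.

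Promoters of 4 genes that moved in opposite directions at the higher dose are shown so that their letters can be compared. The windows run from 250 bases before to 50 after the gene's start and come from RefSeq, build GRCm38.p6. Capitals mark CCGGAAG or its reverse complement CTTCCGG, one form of the site that ETS-family factors bind. It was the only one of 3 searched motifs found in these 4 windows.
Snrpd2, which rose, chr7:19149588-19149887, plus strand: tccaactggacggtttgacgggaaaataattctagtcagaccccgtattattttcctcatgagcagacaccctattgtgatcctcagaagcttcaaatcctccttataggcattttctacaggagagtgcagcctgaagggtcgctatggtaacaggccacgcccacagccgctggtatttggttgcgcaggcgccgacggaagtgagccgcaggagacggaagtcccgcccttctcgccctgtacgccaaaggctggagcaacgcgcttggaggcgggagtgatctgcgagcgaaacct
Srsf7, which fell, chr17:80207256-80207555, minus strand: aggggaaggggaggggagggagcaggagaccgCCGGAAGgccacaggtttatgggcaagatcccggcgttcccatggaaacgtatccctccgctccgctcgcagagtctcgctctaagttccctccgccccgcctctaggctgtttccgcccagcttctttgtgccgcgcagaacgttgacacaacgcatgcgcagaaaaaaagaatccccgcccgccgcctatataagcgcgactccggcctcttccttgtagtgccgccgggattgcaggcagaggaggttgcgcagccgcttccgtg
Sf3a2, which rose, chr10:80798485-80798784, plus strand: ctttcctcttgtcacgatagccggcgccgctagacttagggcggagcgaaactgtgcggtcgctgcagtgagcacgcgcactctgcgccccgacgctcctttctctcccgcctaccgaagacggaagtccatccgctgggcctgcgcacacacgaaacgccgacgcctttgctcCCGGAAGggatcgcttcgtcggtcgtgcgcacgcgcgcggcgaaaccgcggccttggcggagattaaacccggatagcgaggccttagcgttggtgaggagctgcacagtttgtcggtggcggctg
Prpf6, which fell, chr2:181601069-181601368, plus strand: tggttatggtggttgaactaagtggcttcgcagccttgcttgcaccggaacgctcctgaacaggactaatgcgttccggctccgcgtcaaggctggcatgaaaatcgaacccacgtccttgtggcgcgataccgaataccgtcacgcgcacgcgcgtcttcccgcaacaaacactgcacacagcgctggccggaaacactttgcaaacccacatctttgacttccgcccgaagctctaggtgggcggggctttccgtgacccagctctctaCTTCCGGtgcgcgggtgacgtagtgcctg

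Searching both strands, CCGGAAG was found in 19 of 74 windows of 58 splicing factor genes that matched the table (25.7%), beside 8.86% of all 32851 windows. By family it was in 10 of 21 SF3 and PRPF windows, 5 of 16 SR windows, 3 of 17 Sm and LSM windows and 1 of 20 hnRNP windows. The NRF1 palindrome was in 1 of the 74 windows (1.35%, beside 0.971% of all) and the TATA letters TATAAA in 6 (8.11%, beside 13.6%). The splicing factor windows were richer in G and C, with a median of 61.0% beside 52.7%. By family this median was 58.0% for SF3 and PRPF, 62.2% for hnRNP and 69.7% for SR windows. That of the Sm and LSM windows lay between those of SF3 and PRPF and of hnRNP. Across the families the share of windows with CCGGAAG did not rise with G and C content. The part of G and C content in these shares was not tested. CCGGAAG was found in windows of genes that rose (Sf3a2) and fell (Srsf7, Prpf6). It was not found in that of Snrpd2, which rose, or in those of Hnrnpa0 and Lsm14b, which fell by their dimmer probes. Shorter forms, such as CGGAAG in the Snrpd2 window, were not counted.

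The Sm core, the ring shared by the U1, U2, U4 and U5 particles, held the largest share of rises in its family. It was 83.3% of probes, beside 33.3% for proteins of single particles and 33.3% for LSM. All 6 Sm core genes measured had positive values at the higher dose, and 5 rose: Snrpd2, Snrpf, Snrpe, Snrpd1 and Snrpd3. Snrpd2 read 4384 and 4585 units of normalized intensity in control, 5347 and 8017 at the lower dose and 14432 and 12558 at the higher dose. Both higher-dose arrays lay above the other 4. The change was 3.00-fold (log2 1.59 ± 0.24, SE, n = 2 per group, limma adjusted p = 0.0255). Snrpe read 12362 and 10284 units in control, 11807 and 11166 at the lower dose and 23922 and 21115 at the higher dose, a 1.99-fold change against control (log2 1.00 ± 0.17, limma adjusted p = 0.0318). Its lower-dose arrays lay within the control range. Those of Snrpd3 and Snrpd2 lay above both controls without passing. Snrpd3 read 22655 and 21676 units in control, 26780 and 24591 at the lower dose and 40378 and 36747 at the higher dose (log2 0.80 ± 0.15, limma adjusted p = 0.0379). Snrpd1 changed by 0.84 ± 0.16 (limma adjusted p = 0.0391). Snrpb, which did not pass, stood at 0.55 ± 0.18 (limma adjusted p = 0.114), although its higher-dose arrays, at 8515 and 8237 units, lay above the controls, at 5491 and 5944. Snrpf was dim, with 40.5 and 37.5 units in control, 38.8 and 49.3 at the lower dose and 87.7 and 90.8 at the higher dose (log2 1.20 ± 0.18, limma adjusted p = 0.0255), below the median intensity of the array.

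Of the proteins that mark single particles, the U1 proteins Snrpc and Snrpa rose and the U2 proteins Snrpa1 and Snrpb2 did not pass. Snrpc read 11522 and 8710 units in control, 9051 and 9593 at the lower dose and 20254 and 19922 at the higher dose (2.01-fold, log2 1.00 ± 0.19, limma adjusted p = 0.0373). Snrpa had 3 probes, all positive at the higher dose, of which 1 passed (0.96 ± 0.19, limma adjusted p = 0.0404), while the brightest stood at 0.68 ± 0.22 (adjusted p = 0.12) and the dimmest at 0.29 ± 0.17 (adjusted p = 0.337). Snrpa1 stood at 0.61 ± 0.27 (limma adjusted p = 0.204) and Snrpb2 at 0.32 ± 0.25 (limma adjusted p = 0.457), and the Snrpb2 arrays of the higher dose, at 842 and 1202 units, overlapped the controls, at 695 and 934.

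Among the LSM genes, 5 probes rose, of Lsm1, Lsm2, Lsm3 and Lsm10, and 2 fell, of Lsm14a and Lsm14b. Lsm3, of both the U6 ring and the decay ring, read 3148 and 3293 units in control, 3685 and 3995 at the lower dose and 7954 and 7089 at the higher dose. The higher-dose arrays lay above all others, and the change was 2.33-fold (log2 1.22 ± 0.15, limma adjusted p = 0.0204). Lsm2, also of both rings, had 3 probes with values of 1.01, 0.88 and 0.87, of which the brightest passed (limma adjusted p = 0.0392, 0.0517 and 0.186). Lsm1, which sets the decay ring apart from the U6 ring, read 1818 and 1337 units in control, 1703 and 1902 at the lower dose and 3541 and 3310 at the higher dose by its brighter probe (1.14 ± 0.20, limma adjusted p = 0.0337), and its other probe stood at 0.51 ± 0.17 (adjusted p = 0.12). Lsm10, of the U7 particle that trims histone mRNA ends, rose by both of its probes (0.93 ± 0.15 and 0.87 ± 0.15, limma adjusted p = 0.0275 and 0.0304), and its U7 partner Lsm11 stood at 0.73 ± 0.23 (adjusted p = 0.112). Lsm4 stood at 0.94 ± 0.21 (limma adjusted p = 0.0534) and Lsm6, a ring member with a dim probe, at −0.52 ± 0.20 (adjusted p = 0.167), with 40.7 and 56.0 units at the higher dose, below 70.0 and 66.8 in control. Lsm14a, which belongs to the cytoplasmic granules that hold repressed mRNA and not to a ring, fell 1.95-fold, to 3999 and 3590 units at the higher dose, against 8065 and 6787 in control, and read 7528 and 8274 at the lower dose (log2 −0.97 ± 0.17, limma adjusted p = 0.0329). The Lsm14b probes disagreed. The dimmer read 662 and 886 units in control, 774 and 732 at the lower dose and 346 and 411 at the higher dose, where it fell (−1.02 ± 0.21, limma adjusted p = 0.0429), and the brighter read 1921 and 2262 units in control, 2256 and 2045 at the lower dose and 2879 and 3134 at the higher dose (0.53 ± 0.17, adjusted p = 0.111).

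Among the SR genes, 5 of 13 fell at the higher dose. These were Srsf11, Srsf7, Srsf3, Srsf2 and Srsf6, by 6 probes, and Srsf1, Srsf4 and Srsf10 had negative values that did not pass. Srsf7, a shuttling SR protein, read 1906 and 2596 units in control, 2428 and 2685 at the lower dose and 807 and 854 at the higher dose. Both higher-dose arrays lay below the other 4, and the level was 2.68-fold lower than in control (log2 −1.42 ± 0.20, limma adjusted p = 0.0239). A second Srsf7 probe read 0 and −3 units as deposited in control, −1 and 0 at the lower dose and 0 and 1 at the higher dose, so all groups lay at the floor and no fold is given. Srsf3, the smallest SR protein, read 2562 and 2118 units in control, 2840 and 3346 at the lower dose and 1078 and 1040 at the higher dose (2.20-fold lower, −1.14 ± 0.18, limma adjusted p = 0.0273). Srsf2 read 30535 and 25698 units in control, 29080 and 27133 at the lower dose and 15427 and 13908 at the higher dose (1.91-fold lower, −0.94 ± 0.17, limma adjusted p = 0.0338). In Srsf2 the lower-dose arrays lay inside the control range, and in Srsf3 they lay above both controls without passing (0.40 ± 0.18, limma adjusted p = 0.764). Srsf11, which lies at the edge of the SR family, fell by both of its probes, but by unequal amounts: 3.27-fold by the dimmer, with 374 and 338 units in control, 338 and 379 at the lower dose and 112 and 105 at the higher dose (−1.71 ± 0.16, limma adjusted p = 0.0186), and 1.83-fold by the brighter (−0.87 ± 0.19, adjusted p = 0.0485). Srsf6 fell by 0.76 on the log2 scale (SE 0.15, limma adjusted p = 0.0402). The brighter probe of Srsf1, the founding SR protein, stood at −0.63 ± 0.18 (adjusted p = 0.0903), Srsf4 at −0.72 ± 0.19 (adjusted p = 0.0717) and Srsf10 at −0.39 ± 0.18 (adjusted p = 0.219).

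Srsf9 had a positive value, with 16269 and 19597 units at the higher dose against 8312 and 11918 in control. The arrays did not overlap, but the change did not pass (0.84 ± 0.23, limma adjusted p = 0.0791). The 1 SR probe called as a rise, for Srsf12, read −2 and −2 units as deposited in control, 0 and −4 at the lower dose and 3 and 4 at the higher dose, so the call compares values at the floor and no fold is given. A brighter Srsf12 probe stood at 0.37 ± 0.19 (adjusted p = 0.287). Pnisr, Scaf4 and Scaf11, which entered through older SR-type symbols, are not core SR proteins and did not pass. The Scaf4 probe read 2 and 58 units in control as deposited, 2 and 79 at the lower dose and 0 and −5 at the higher dose, so the replicates disagreed and its value of −3.52 carried an SE of 2.22.

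The hnRNP genes gave 7 falls and 0 rises. Of 22 probes, 19 had negative values at the higher dose, and the probes with positive values were both of Hnrnpul1 and 1 of the Hnrnpa2b1 pair. Hnrnpdl, a relative of the RNA-binding protein AUF1, read 3273 and 3417 units in control, 3422 and 2952 at the lower dose and 1558 and 1546 at the higher dose. The higher-dose arrays lay well below the rest (2.15-fold lower than control, log2 −1.11 ± 0.15, limma adjusted p = 0.0233). Hnrnpm read 22745 and 18845 units in control, 20006 and 24069 at the lower dose and 11454 and 9912 at the higher dose (1.94-fold lower, −0.96 ± 0.19, limma adjusted p = 0.0429). Hnrnph1, which binds runs of guanine, read 16414 and 13476 units in control, 14862 and 14267 at the lower dose and 8083 and 7517 at the higher dose (−0.93 ± 0.17, limma adjusted p = 0.0344). Hnrnpll, known in lymphocytes as a regulator of Ptprc (CD45) exon choice, was the 1 hnRNP gene that fell by 2 probes (−0.91 ± 0.15 and −0.94 ± 0.15, limma adjusted p = 0.0297 and 0.0267). Its brighter probe gave 9981 and 10018 units in higher-dose cells, against 18546 and 19119 in control.

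For Hnrnpa0 and Hnrnpd the fall rested on the dimmer of 2 probes. The dimmer Hnrnpa0 probe read 603 and 517 units in control, 506 and 619 at the lower dose and 250 and 236 at the higher dose (2.30-fold lower, −1.20 ± 0.18, limma adjusted p = 0.0256), and the brighter 16202 and 14960 against 21640 and 18686 (−0.37 ± 0.16, adjusted p = 0.205). The dimmer Hnrnpd probe read 218 and 217 units in control, 231 and 177 at the lower dose and 89.2 and 119 at the higher dose (−1.08 ± 0.22, limma adjusted p = 0.045), and the brighter 8346 and 8414 against 10715 and 10054 (−0.31 ± 0.19, adjusted p = 0.36). In both genes the 2 probes lay on the same side of control. The Hnrnpa2b1 probes did not, at 0.71 ± 0.29 for the brighter and −0.50 ± 0.15 for the dimmer. Neither passed (limma adjusted p = 0.183 and 0.0939), and the dimmer lay below the median intensity of all probes. Hnrnpr (−0.93 ± 0.21, adjusted p = 0.0514), Hnrnpu (−0.96 ± 0.24, adjusted p = 0.0644) and the dimmer Hnrnpc probe (−0.96 ± 0.22, adjusted p = 0.0587) missed the threshold in limma with values as large as those of genes that passed. Hnrnpab stood at −0.17 ± 0.15 (limma adjusted p = 0.494), on a probe that read 45886 to 54897 units close to the top of the scanner's range.

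The SF3 and PRPF genes were mixed, with falls of Prpf6 and Prpf3 and rises of the SF3 genes Sf3b5 and Sf3a2. The call share of 20.0% was the lowest of the families. It was near the 17.0% of all probes above the median intensity, and all 20 probes were that bright. Prpf6, which bridges the U5 and U4/U6 particles, read 11492 and 10502 units in control, 11908 and 12744 at the lower dose and 4799 and 4217 at the higher dose. It fell 2.44-fold against control, with the higher-dose arrays far below the rest (log2 −1.29 ± 0.16, limma adjusted p = 0.0204). Prpf3, a U4/U6 protein, read 15447 and 13313 units in control, 14359 and 16071 at the lower dose and 8525 and 7419 at the higher dose (1.80-fold lower, −0.85 ± 0.17, limma adjusted p = 0.0435). Prpf31 (−0.53 ± 0.15, adjusted p = 0.0849) and the U5 protein Prpf8 (−0.66 ± 0.21, adjusted p = 0.113) had negative values that did not pass in limma, and Prpf4 stood at 0.13 ± 0.17 (adjusted p = 0.674). Sf3b5, a small SF3b subunit, read 11126 and 9663 units in control, 12016 and 14219 at the lower dose and 19542 and 20184 at the higher dose (1.92-fold, 0.94 ± 0.17, limma adjusted p = 0.0348). Sf3a2 read 2178 and 2175 units in control, 1586 and 1381 at the lower dose and 3799 and 3670 at the higher dose (1.72-fold at the higher dose, 0.78 ± 0.15, limma adjusted p = 0.0405), so that its lower-dose arrays lay below control and its higher-dose arrays above. Sf3b1, the subunit that grips the branch point, stood at −0.42 ± 0.20 (limma adjusted p = 0.255) and Sf3b2 at −0.73 ± 0.22 (adjusted p = 0.101), with higher-dose arrays below control in both.

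**Figure D3:**
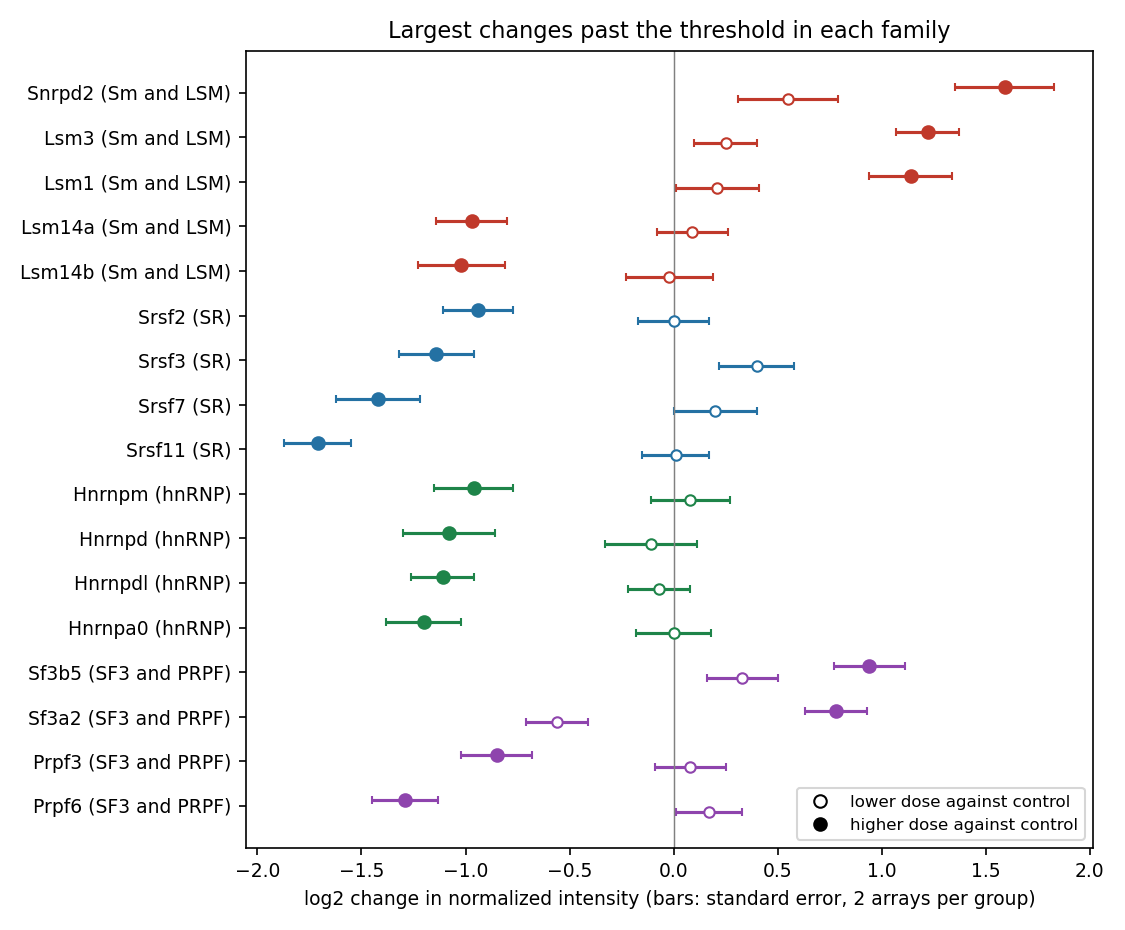
Log2 change in normalized intensity against control, with its standard error, for the largest changes past the threshold at the higher dose in each family, among probes above the median intensity; open points are the lower dose and filled points the higher dose. Higher-dose values run between −1.71 (dimmer Srsf11 probe) and 1.59 (Snrpd2), and the lower-dose values between −0.56 (Sf3a2) and 0.55 (Snrpd2); the Lsm14b, Srsf11, Hnrnpa0 and Hnrnpd points are those of the dimmer probe of each gene.

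At the lower dose 0 of 86 splicing factor probes passed in limma, beside 0.0114% of all probes, and 3 had an unadjusted p under 0.05 (Sf3a2, the brightest Snrpa probe and the brighter Hnrnpd probe), beside 6.36% of all probes. No other tool was run. Sf3a2 stood at −0.56 ± 0.15, Snrpa at −0.68 ± 0.22 and Hnrnpd at −0.56 ± 0.19, each at an adjusted p of 0.764 in limma. Hnrnpd read 8138 and 6075 units at the lower dose against 10715 and 10054 in control, without overlap. Snrpa read 2359 and 1741 units in control, 1146 and 1405 at the lower dose and 3483 and 3021 at the higher dose, also without overlap. Over the 86 probes the lower-dose values ran between −0.68 and 0.55, with 43 above 0 and 41 below.

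Set against lower-dose cells, higher-dose cells had 15 probes up and 21 down, or 41.9%, beside 13.7% of all probes (6.78% up and 6.95% down, limma, adjusted p under 0.05). This comparison shares the higher-dose arrays with the one against control. Of Sm and LSM probes 13 were higher and 2 lower, of SR probes 1 was higher and 7 lower, of hnRNP probes 0 were higher and 9 lower, and of SF3 and PRPF probes 1 was higher and 3 lower. Sf3a2 differed by 1.33 ± 0.15 (limma adjusted p = 0.018) and Srsf3 by −1.54 ± 0.18 (limma adjusted p = 0.018), beside 0.78 and −1.14 against control. The brightest and the middle Snrpa probe both differed by 1.35 (limma adjusted p = 0.0263 and 0.0212), and the middle one had passed against control. Hnrnph2 (−1.14 ± 0.20, adjusted p = 0.0294) and the kinase gene Prpf4b (adjusted p = 0.0365) passed in limma between the doses but not against control, where they stood at −0.73 and −0.57. A placement of both lower-dose arrays below control and both higher-dose arrays above was seen for 4 of the 86 probes, of Lsm10, Sf3a2 and Snrpa, a share of 4.65% beside 4.16% of all probes. The opposite placement was seen for 6, of Hnrnph2, Hnrnpll, Prpf18, Prpf4b, Prpf6 and Srsf3, a share of 6.98% beside 5.26%. Among all probes above the median intensity the shares were 5.77% and 7.75%, so neither share stands out from the array. These 36 calls were also lost when any 1 of the 6 arrays was left out, and the count was 0 with only the 2 groups compared. The share of all probes called in those fits is not given.

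Gene span moved with the higher-dose change and with family. The median span in the GRCm38.p6 annotation was 9.85 kb for the Sm and LSM genes, 14.2 kb for the SR genes, 14.2 kb for the hnRNP genes and 21.7 kb for the SF3 and PRPF genes, beside 19.3 kb for all named genes with a span. Over all 17708 such genes the median log2 change was 0.15 for spans under 5 kb and −0.15 for spans over 40 kb, and Spearman's rho between span and change was −0.196. Within families rho was −0.505 for the 20 Sm and LSM genes, −0.558 for the 20 SF3 and PRPF genes, −0.077 for the 13 SR genes and −0.129 for the 16 hnRNP genes. These are descriptions across genes measured on the same arrays. Among genes that fell, Srsf2 spans 3.78 kb, Hnrnpdl 6.36 kb and Srsf7 7.29 kb, while Lsm14a spans 45.9 kb and Prpf6 54.3 kb. Sf3b5, which rose, spans 0.73 kb. After the trend of each array with span was removed, the medians were 0.74 for Sm and LSM, −0.69 for SR, −0.68 for hnRNP and −0.31 for SF3 and PRPF. Then 14 probes rose and 15 fell, at a background of 12.9%, with 12 and 2 for Sm and LSM, 1 and 5 for SR, 0 and 6 for hnRNP and 1 and 2 for SF3 and PRPF.

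**Figure D4:**
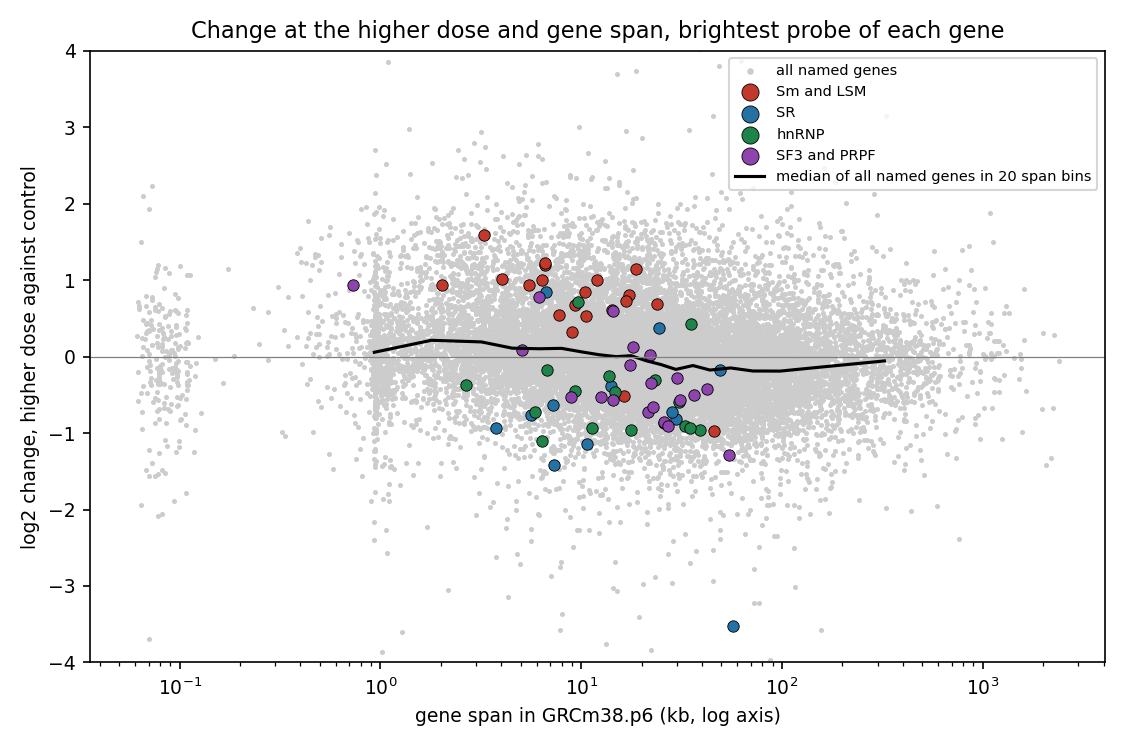
Log2 change at the higher dose against control plotted on gene span (kb, log axis) for the brightest probe of each named gene; grey points are all named genes, the line is their median in 20 span bins, and coloured points are splicing factor genes by family, and 23 genes outside the axis limits of −4 and 4 are not drawn. The Sm and LSM points lie mostly above the line, and the SR and hnRNP points mostly below it at short and long spans.

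Other genes of the spliceosome were read from lists of their own. Of 42 spliceosome genes measured outside these symbols, 5 rose and 4 fell at the higher dose, with a median log2 change of −0.24. Of these genes 40 lay above the median intensity, and 17.0% of all probes that bright were called, so the count is near the background. Rises included Snrnp25 of the minor spliceosome (1.40 ± 0.17, limma adjusted p = 0.0204) and Zmat2 (1.10 ± 0.16, adjusted p = 0.0253, while a dim second probe stood at −0.18), and falls included Cdc5l (−1.17 ± 0.16, adjusted p = 0.0225) and the helicase gene Dhx15 (−1.01 ± 0.16, adjusted p = 0.0284). Of 36 splicing regulators and kinases, 0 rose and 12 fell, with a median of −0.57. Of the 36, 34 lay above the median intensity, and 7.80% of all probes that bright fell. The strongest by p were Mbnl2 and Ptbp2, both regulators of alternative exons. Mbnl2 gave 500 and 478 units in higher-dose cells, against 6351 and 5359 in control by its brighter probe (−3.58 ± 0.16, limma adjusted p = 0.00799), while its other probe stood at −0.47 (adjusted p = 0.259). Ptbp2 stood at −1.27 ± 0.19 by its brighter probe (limma adjusted p = 0.0249) and at −0.16 by the other (adjusted p = 0.565). At the lower dose 0 genes of either list passed in limma.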

How the data were processed

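Gene expression was measured on 6 single-colour Phalanx OneArray arrays, 2 per group, and groups were read from the titles. The deposited table gave 1 linear intensity per probe, with values below 0 and array medians of 125 to 170 units. RMA is named in the submitters' processing notes, but the deposited intensity values are not on a log scale and the arrays differ in median, so they were normalized again.

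Values were quantile-normalized, values under 1 were set to 1, and log2 values were fitted with limma 3.58.1 in R 4.3.3, with 1 mean per group over all 6 arrays and 3 residual degrees of freedom. P-values were adjusted by Benjamini-Hochberg over 26423 probes, with a threshold of 0.05. Fold changes are differences of group means on that log2 scale, and ± is the standard error. The procedure was tested on simulated data. Probes were named by the platform's symbols, updated through RefSeq. For lists of other genes, the brightest probe stood for each gene.

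The members, gene lists and tests were chosen with earlier results of these data known. Values for every array are given for the 4 largest changes past the threshold per family and direction at the higher dose, the smallest p per family at the lower dose, members whose probes disagree, and others that bear on a family's description. Alternatives were other normalizations, floors, filters, variance priors, array weights, the replicate number as a block, leaving out each array, removal of the trend with gene span, and the mean of a gene's probes. The number of arrays limits the precision.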

Additional observations from a re-analysis of the deposited data

How the results depend on the processing

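The direction of 25 log2 changes tracked by probe held in 370 of 372 values under the alternatives, and the floor-level Srsf7 probe stood at 0.00 in the other 2 (no normalization, and without higher-dose replicate 2). The calls held less well. At the higher dose against control, 59 splicing factor probes (25 higher and 34 lower) were called when the test was kept to the brighter part of the array, above the median probe (background 41.8%), 49 (22 and 27) with a trended prior (background 18.9%) and 13 (5 and 8) with only the 2 groups compared. Calls there and between the doses were also lost when any 1 array was left out. Between the doses, testing only bright probes gave 56 calls and only the 2 groups gave 0. No background is given for the 2-group fits, for the fits without 1 array or for the 56 calls. Those counts are therefore not set against the array. Apart from the one with a trended prior, these fits have fewer arrays or fewer probes.

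Deviations of same-numbered arrays correlated at 0.033 between lower dose and control, 0.313 between higher dose and control and −0.226 between the doses. Whether the replicate numbers pair the arrays cannot be decided from so few arrays per group. With the number as a block, 0 splicing factor probes were called at the higher dose against control and 0 at the lower dose. Between the doses 11 were called (3 higher and 8 lower). The share of all probes called with this block is not given, so these counts are not set against the array.

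Family medians kept their direction at the higher dose. Against control without normalization they were 0.80 for Sm and LSM, −0.57 for SR and −0.38 for SF3 and PRPF. Scaling to equal medians gave 0.73 for Sm and LSM and −0.08 for all probes. Removing the span trend gave 0.74 for Sm and LSM and −0.31 for SF3 and PRPF. Bright probes alone gave −0.82 for hnRNP and −0.05 for all probes. Leaving out 1 array gave 0.76 to 0.84 for Sm and LSM, −0.84 to −0.58 for SR, −0.85 to −0.56 for hnRNP, −0.46 to −0.42 for SF3 and PRPF and −0.05 to 0.00 for all probes.

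At the lower dose, no normalization shifted all probes by 0.22, Sm and LSM by 0.18, SR by 0.22, hnRNP by 0.13 and SF3 and PRPF by 0.18, and equal medians gave −0.07 for Sm and LSM and −0.07 for SF3 and PRPF. Leaving out 1 array gave −0.01 to 0.09 for Sm and LSM, 0.00 to 0.06 for SR, −0.08 to −0.02 for hnRNP, −0.05 to 0.06 for SF3 and PRPF and −0.03 to 0.01 for all probes.

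Between the doses, no normalization gave 0.73 for Sm and LSM, −0.62 for SF3 and PRPF and −0.25 for all probes. Equal medians gave 0.91 for Sm and LSM and −0.07 for all probes, the span trend 0.69 for Sm and LSM and −0.37 for SF3 and PRPF, and bright probes alone −0.85 for hnRNP and −0.03 for all probes. Leaving out 1 array gave 0.75 to 0.86 for Sm and LSM, −0.63 to −0.45 for SR, −0.75 to −0.62 for hnRNP, −0.50 to −0.37 for SF3 and PRPF and −0.03 to 0.01 for all probes. The cause of these shifts was not tested. Differences among probes near the floor could not be measured.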

Other observations

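Among genes listed for assembly of the small nuclear RNA particles, 3 of 16 measured rose at the higher dose and 1 fell. Their median log2 change was −0.09. All 16 lay above the median intensity, where 17.0% of all probes were called. Gemin7, a subunit of the SMN complex, gave 2307 and 2197 units in higher-dose cells, against 543 and 548 in control (2.04 ± 0.18, limma adjusted p = 0.0185). Both higher-dose arrays lay far above control. Prmt5, the methyltransferase that modifies Sm proteins before loading, gave 11514 and 9810 units in higher-dose cells, against 4666 and 3325 in control (1.43 ± 0.24, limma adjusted p = 0.0304). Ncbp1, a cap-binding subunit, fell to 2646 and 2722 units, against 5445 and 6368 in control (−1.13 ± 0.21, limma adjusted p = 0.0369).

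Of 8 exon junction complex and decay genes measured, Upf2 fell (−0.86 ± 0.17, limma adjusted p = 0.0388) and 0 rose, with a median of 0.05. All 8 lay above the median intensity, so 1 call of 8 does not exceed the 17.0% background. At the lower dose 0 genes of either list passed in limma.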
